A study of Mus musculus with 12 samples.

Results

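The matrix metalloproteinases (MMPs), the ADAMTS proteases with their ADAMTS-like relatives, and the tissue inhibitors of metalloproteinases (TIMPs) were examined in mouse meninges, the membranes around the brain, after dextran sulfate sodium (DSS) and in controls. Members were all rows of the count table whose gene symbol begins with Mmp, Timp, Adamts or Adamtsl followed by a number, except the neutrophil collagenase gene Mmp8, which the selection left out. This gave 50 of the 47747 symbols: 22 MMP, 19 ADAMTS, 5 ADAMTSL and 4 TIMP genes. The rule reads symbols and no measured value, although the family and the exception were chosen with earlier results of these data known. Of the 50, 40 passed the filter on low counts and were tested among 18593 genes in all.

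Total RNA was sequenced from 12 C57bl/6 mice. For 5 days 6 mice drank 2% DSS, which damages the lining of the colon and causes colitis, and then plain water. The 6 controls have no agent in their labels. All were culled after 6 days, and the starting day of that count is not stated. The comparison addresses how gene expression in the meninges stands during an acute chemical colitis. The age of the mice is not given in the labels used here.

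MMPs are zinc proteases that are made as inactive proenzymes and, once activated, cut collagens, gelatin, laminin and many cell surface proteins. ADAMTS proteases carry thrombospondin repeats that tie them to the matrix, and they cut proteoglycans such as versican and aggrecan or trim procollagens, while ADAMTS-like proteins keep the repeats and lack the protease domain. TIMPs bind the active site of the proteases, and in fibrous membranes such as the dura the balance of proteases and TIMPs governs collagen turnover, remodelling of bone and passage of leukocytes.

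Libraries held 9312788 to 41869997 counts. Within a group, Spearman correlations between mice lay between 0.967 and 0.987. The source label reads colon, whereas titles and extraction protocol name meninges. A list of 17 fibroblast markers summed to between 11801 and 22078 CPM (counts scaled to TMM-adjusted library sizes, the unit of all levels below unless a length is named), and 10 colon epithelium markers to between 4.84 and 12.8 CPM, with Cdx2 and Fabp2 at 0 in all 12 libraries. The 10 choroid plexus markers summed to between 295 and 9802 CPM in controls and between 327 and 9769 CPM in DSS mice. The part of choroid plexus content in the results below was not tested. In other measures, Control replicate 2, DSS replicate 2 and DSS replicate 3 stood apart. Ribosomal RNA features took 61.3% of the counts of Control replicate 2 and 1.13% to 10.5% in the other 11 mice. Skeletal muscle markers summed to 225 CPM in DSS replicate 2 and to between 12.3 and 32.9 CPM in the others. DSS replicate 3 had the lowest neutrophil marker sum and the highest osteoclast marker sum of the DSS mice. Results below are given with and without these mice where they rest on them.

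Of the members, 9 lie within 427 kb of chromosome 9 (chr9:7272514-7699585 in GRCm38, the assembly that mm10 denotes), among them the collagenase gene Mmp13, the macrophage elastase gene Mmp12 and the stromelysin gene Mmp3. Promoter windows from RefSeq on GRCm38.p6, reaching from 250 bases before to 50 bases after a start site, were at hand for 35 of the 50 members, in 38 windows. They were searched on both strands for the AP-1 letters TGANTCA, the RUNX letters TGTGGTT and the PU.1 letters GAGGAAGT. AP-1 is the dimer of Fos and Jun proteins known for driving inducible MMP genes. The AP-1 letters were present in 7.81% of 32851 windows of all genes and in 8 of the 38 windows of members, and all 8 belonged to the chromosome 9 cluster. There, 8 of 11 windows held them, each of a different gene, against 0 of the 27 windows of other members. No window was at hand for Mmp9, Adamts4, Mmp2 and Adamts5, among others, so these genes were not searched. The cluster's windows were also poorer in G and C, at 37.7% to 52.0% against 53.3% to 80.0% in the 27 windows of other members. The 8 stretches are printed because they show what 8 of the 9 cluster genes share, and the Mmp27 window lacked these letters. Each runs 5′ to 3′ on the strand of the gene, with the AP-1 letters in capitals and 15 bases on either side.
Mmp13: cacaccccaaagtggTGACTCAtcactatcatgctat
Mmp12: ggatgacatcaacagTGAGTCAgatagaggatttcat
Mmp1b: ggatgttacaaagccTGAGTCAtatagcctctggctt
Mmp3: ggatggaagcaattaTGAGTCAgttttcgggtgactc
Mmp1a: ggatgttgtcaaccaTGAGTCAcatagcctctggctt
Mmp10: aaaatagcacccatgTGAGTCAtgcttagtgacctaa
Mmp20: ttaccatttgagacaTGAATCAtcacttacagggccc
Mmp7: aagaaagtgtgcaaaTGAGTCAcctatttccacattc
The capitals begin 35 bases before the start site in Mmp13 and between 44 and 95 bases before it in the other 7. A match describes letters, not occupancy, and the N of the AP-1 letters stands for any base. That base was C in Mmp13, A in Mmp20 and G in the other stretches. The RUNX letters were in 5.27% of all windows and in 3 of the 38, and the PU.1 letters in 3.20% and in 2 of the 38. The whole Mmp13 window (chr9:7272264-7272563, plus strand) is printed because Mmp13 was the member of the cluster with the highest level, and because it holds the RUNX letters, read on the other strand, beside the AP-1 letters, both in capitals. RUNX2 is a factor of bone-forming cells.
Mmp13 promoter: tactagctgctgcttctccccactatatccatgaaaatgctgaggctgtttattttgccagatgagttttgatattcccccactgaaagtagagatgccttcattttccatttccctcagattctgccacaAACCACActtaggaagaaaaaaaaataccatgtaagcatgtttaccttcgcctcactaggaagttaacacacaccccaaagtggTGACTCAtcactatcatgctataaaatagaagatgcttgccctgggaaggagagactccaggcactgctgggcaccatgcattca

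Sharing these letters went with no shared level. Of the 9 cluster genes, Mmp13, Mmp12 and Mmp3 were tested and 6 were not. Mmp1a, Mmp1b and Mmp20, the latter known as the tooth enamel protease, had 0 counts in all 12 libraries. A count of 0 allows up to 3 counts, for counting error only. These 3 counts were scaled to library totals without the TMM adjustment, unlike the other CPM values. On that scale they are 0.322 CPM in the shallowest library, 0.0717 CPM in the deepest and 0.0103 CPM over all 12 together. On the TMM-adjusted scale, 1 count is 0.0899 CPM in the shallowest library, Control replicate 3, and 0.0216 CPM in the deepest, Control replicate 1. Mmp10, the second stromelysin, had 2 counts in all and Mmp7, known as matrilysin of epithelia, had 4. Mmp27 had 19 counts over 9 libraries. Outside the cluster, the untested members were Mmp21 with 2 counts, Adamts13, the plasma protease that cuts von Willebrand factor, with 24, Adamts19 with 27 and Adamts16 with 37. No library held more than 9 counts of any of these 10 genes.

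In control meninges the family was led by a gelatinase and an inhibitor. Levels between genes were compared per length, as CPM per kilobase of union exon length in GENCODE M21. Mmp2, gelatinase A, a product of fibroblasts, stood first at 132 ± 9.76 CPM per kilobase (SD, n = 6), followed by Timp2, the inhibitor that also takes part in activating proMMP2, at 118 ± 6.89. The ranges of these genes overlapped, and both stood clear of Timp3, the matrix-bound inhibitor, at 46.0 ± 3.75 CPM per kilobase. Timp1, the inducible inhibitor, had 40.5 ± 6.70, Adamts2, the main procollagen I N-proteinase, 37.7 ± 3.27, and Mmp9, gelatinase B, 35.3 ± 4.21 CPM per kilobase. Mmp13 had 35.2 ± 6.14 and Mmp14, the membrane-type MMP that activates proMMP2, 28.8 ± 3.22 CPM per kilobase. From Timp3 to Mmp14 the range over control mice overlapped between each pair of neighbours in this order, so neighbours are not resolved. Further apart, the lowest Timp3 control (41.8 CPM per kilobase) lay above the highest control of Adamts2 (40.7), Mmp9 (41.5), Mmp13 (40.7) and Mmp14 (33.3). Mmp14 lay above Adamts10 (18.5 ± 2.22) with no overlap. With the longest transcript as length, 7 of these 8 genes stayed among the highest 8 and Adamts10 took the place of Mmp13.

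At the other end, Mmp25 (0.157 CPM per kilobase), Adamts18 (0.135) and Mmp12 (0.134) had the lowest control means of the tested members, and their ranges overlapped. Levels of the tested members thus covered about 3 orders of magnitude on this scale. The 3 highest members varied less between control mice than the 3 lowest: the coefficient of variation over control mice was 7.37% for Mmp2, 5.82% for Timp2 and 8.15% for Timp3, against 52.3% for Mmp25, 43.5% for Adamts18 and 38.7% for Mmp12, whose counts were few. Adamts7, at 7.85%, combined a low level with a small spread.

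**Figure D1:**
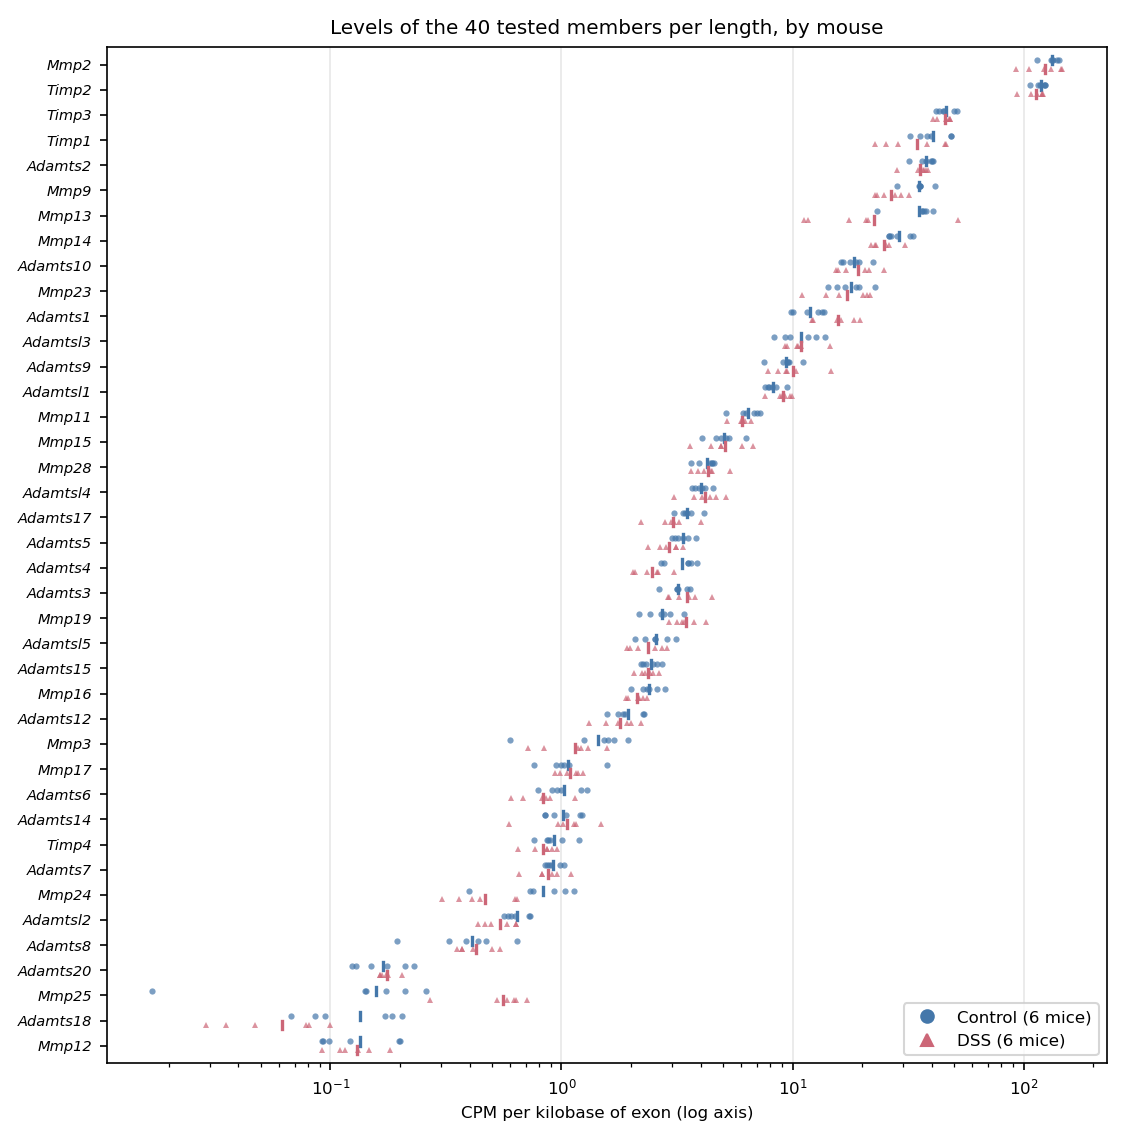
Level of each of the 40 tested members per mouse, as CPM per kilobase of exon on a log axis, with the mean of each group as a vertical bar (blue circles, 6 control mice; red triangles, 6 DSS mice). Mmp2 and Timp2 stand apart at the top at a control mean of 132 and 118 CPM per kilobase, and Mmp25 is the member near the bottom whose DSS mice all lie to the right of the controls.

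Summed per family, the MMP genes had 274 ± 15.6 CPM per kilobase in controls, against 239 ± 40.4 in the DSS group (SD, n = 6 each). The lowest, median and highest sums were 252, 277 and 295 in controls and 196, 234 and 299 in DSS mice, so that the groups overlapped and the DSS mice spread more widely. The TIMP sum was 206 ± 8.51 in controls and 194 ± 20.9 in DSS mice. The ADAMTS sums were 99.0 ± 6.50 and 99.9 ± 9.32, and ADAMTSL sums 26.4 ± 2.89 and 27.0 ± 2.94. Mmp2 and Timp2 make up much of the MMP and TIMP sums, and these sums are given as a description without a test.

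Between DSS and control mice, 3 of the 40 tested members changed at an edgeR adjusted p under 0.05: Mmp25 rose, and Mmp9 and Adamts4 fell. Over all tested genes, 4.94% changed, 3.68% in the higher and 1.26% in the lower direction, so the members' share was near that of all genes and the count says nothing particular about the family. The median log2 fold change of the members was -0.065, beside -0.022 over all tested genes. Of the members 14 had a positive and 26 a negative value. An unadjusted p under 0.05 was reached by 9 members, beside 19.0% of all tested genes. In 1 member, Mmp25, every DSS mouse lay above every control, beside 2.23% of all genes, and in 0 members did every DSS mouse lie below every control, beside 0.823%.

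**Figure D2:**
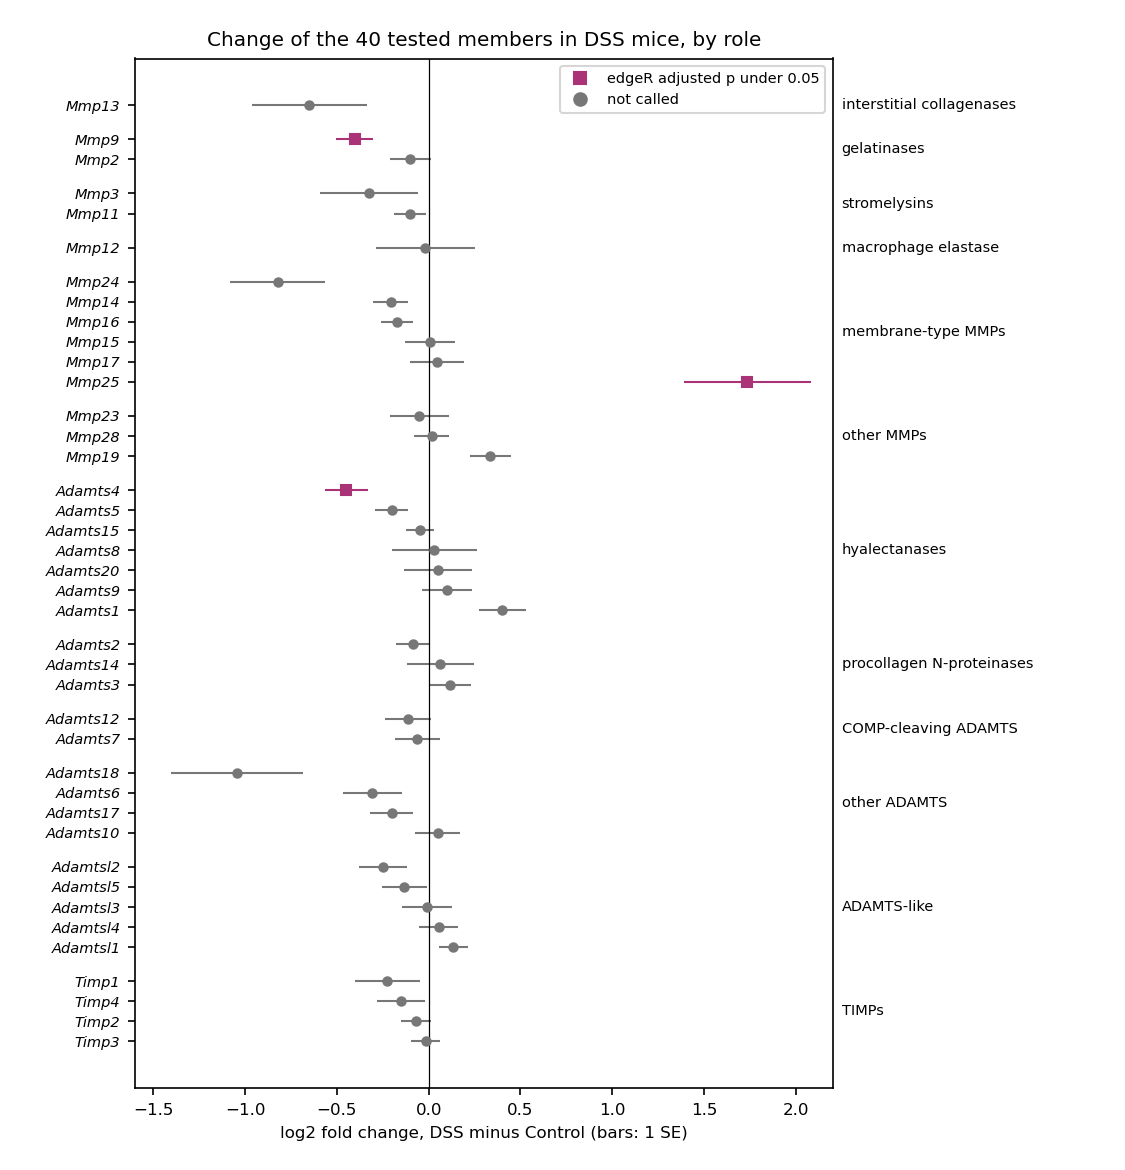
Log2 fold change (DSS minus control, edgeR, bars 1 SE) of the 40 tested members, grouped by role; squares mark an adjusted p under 0.05. Mmp25 at 1.74 is far to the right of the rest, Mmp9 (-0.40) and Adamts4 (-0.45) are called on the left, and Adamts18 (-1.05), Mmp24 (-0.82) and Mmp13 (-0.65) lie further left with wider bars and are not called.

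Mmp25 rose 3.33-fold. It encodes the GPI-anchored membrane-type protease known as leukolysin or MT6-MMP, which is found on neutrophils, and lies at chr17:23628311-23645277 on the minus strand. Its lowest, median and highest levels were 0.0899, 0.837 and 1.38 CPM in controls and 1.44, 3.19 and 3.76 CPM in DSS mice. The groups did not overlap. Control replicate 3, the shallowest library, held 1 count and was lowest, and DSS replicate 3, at 1.44 CPM, lay just above Control replicate 1. Group means were 0.834 ± 0.436 and 2.96 ± 0.811 CPM (SD, n = 6 each), and the log2 fold change was 1.74 ± 0.35 SE (edgeR adjusted p = 0.0105). Without Control replicate 2 and DSS replicate 2 the log2 fold change was 1.67 (adjusted p = 0.0259), and without DSS replicate 3 it was 1.88 (adjusted p = 0.00465). Among all alternatives tried the adjusted p was at most 0.0296.

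Neutrophil markers were also higher in the DSS group. All 14 of 14 listed neutrophil genes rose, from the calprotectin genes S100a8 and S100a9 to the primary granule genes Mpo and Elane, with a median log2 fold change of 3.36. Their summed level lay between 70.6 and 204 CPM in controls and between 268 and 1446 CPM in DSS mice, and none of them was at 0 in any library. DSS replicate 3, lowest in Mmp25 among DSS mice, was also lowest in this sum, at 268 CPM, and the other 5 DSS mice had at least 1116 CPM. Among controls the order was not shared: Control replicate 1 had the highest Mmp25 level, 1.38 CPM, at a sum of 85.0 CPM. Control replicate 2, with the highest sum of 204 CPM, had 0.755 CPM of Mmp25. In bulk tissue, more cells of a type and more RNA per cell cannot be told apart, and the part of neutrophil number in the rise of Mmp25 was not tested.

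Mmp9, which encodes gelatinase B, a protease of osteoclasts and of neutrophil granules, did not rise beside Mmp25 and was called in the other direction. It lies at chr2:164940780-164955850 on the plus strand. Its lowest, median and highest levels were 99.8, 126 and 147 CPM in controls and 80.8, 93.4 and 113 CPM in DSS mice. In 4 of 6 DSS mice the level was below the lowest control, and DSS replicates 3 and 4 overlapped the range of controls. The means were 125 ± 14.9 and 94.4 ± 12.9 CPM (SD, n = 6 each), and Mmp9 fell by 0.40 ± 0.10 SE in log2 terms (edgeR adjusted p = 0.0350). The call is narrow: it held when Control replicate 6 or either of DSS replicates 3 and 4 was left out, and was lost without any other single mouse, with adjusted p between 0.0519 and 0.0825 and the log2 fold change between -0.42 and -0.35. Without Control replicate 2 and DSS replicate 2 together it was -0.37 (adjusted p = 0.0870).

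Osteoclast markers were lower in the same direction. Of 11 tested osteoclast genes, 6 fell (Acp5, Ctsk, Atp6v0d2, Oscar, Dcstamp and Itgb3), 0 rose, and the median log2 fold change was -0.68. The sum of all 12 listed genes lay between 367 and 535 CPM in controls and between 222 and 343 CPM in DSS mice. DSS replicate 3 had both the highest Mmp9 level and the highest osteoclast sum of the DSS mice. Control replicate 6 had both the lowest Mmp9 level and the lowest sum of the controls. The order was not shared throughout. DSS replicate 2, with the lowest sum of 222 CPM, had 88.2 CPM of Mmp9, above DSS replicate 1 (80.8 CPM at a sum of 250 CPM). Control replicate 3 had 125 CPM of Mmp9 at a sum of 499 CPM, and Control replicate 1 had 126 CPM at 399 CPM. The part of osteoclast content in the Mmp9 result was not tested.

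Mmp13, the interstitial collagenase of bone and cartilage, varied widely between DSS mice relative to its mean. Its lowest, median and highest levels were 61.9, 98.3 and 109 CPM in controls and 29.9, 51.4 and 139 CPM in DSS mice. In 5 of 6 DSS mice the level was below the lowest control, Control replicate 4, and in DSS replicate 3 it was above every control. Means were 94.2 ± 16.4 and 60.0 ± 40.4 CPM (SD, n = 6 each), with a log2 fold change of -0.65 ± 0.31 SE (edgeR adjusted p = 0.280), so no difference was called. That outcome rests on DSS replicate 3: without it the log2 fold change was -1.09 (edgeR adjusted p = 0.00445), and without any other single mouse it lay between -0.74 and -0.51 and was not called. DSS replicate 3 was 1 of the mice named above as standing apart. Its osteoclast sum of 343 CPM was the highest of the DSS mice, and its osteoblast and osteocyte sum of 1692 CPM lay within the 822 to 2569 CPM of the others. Among controls the order of Mmp13 and the osteoclast sum was not shared. Control replicate 4, lowest in Mmp13, had a sum of 464 CPM, within the control range of 367 to 535 CPM. Control replicate 6, with the lowest sum, had 101 CPM of Mmp13. Of 10 tested osteoblast and osteocyte genes 1 fell (Ibsp, the bone sialoprotein gene) and 0 rose. The part of bone cells in the Mmp13 values was not tested.

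**Figure D3:**
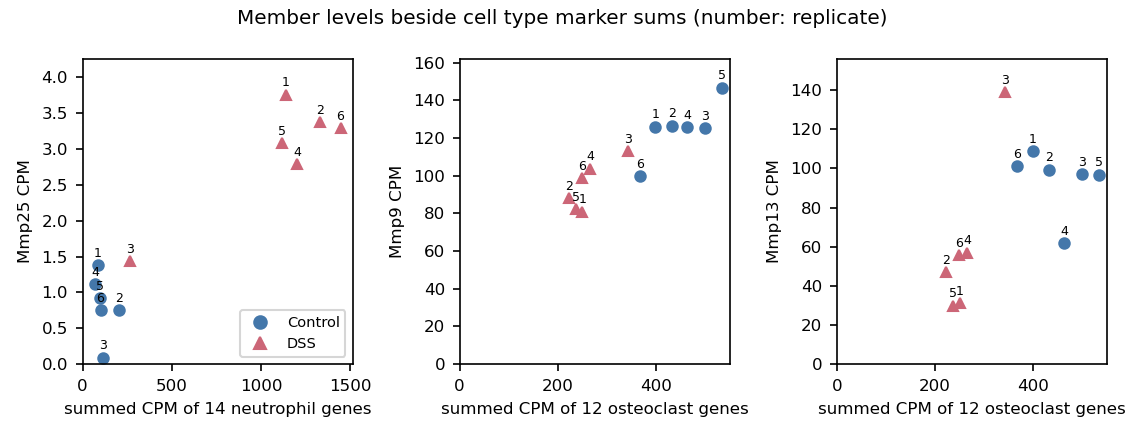
Level of Mmp25 against the summed CPM of 14 neutrophil genes, and of Mmp9 and Mmp13 against the summed CPM of 12 osteoclast genes, per mouse (numbers are replicates; blue circles, controls; red triangles, DSS). DSS replicate 3 has the lowest Mmp25 and neutrophil sum (268 CPM) and the highest Mmp9, Mmp13 and osteoclast sum (343 CPM) of the DSS mice.

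The other gelatinase, Mmp2, differed less than its spread. Its levels ran from 385 through a median of 450 to 478 CPM in controls and from 312 through 427 to 492 CPM in DSS mice, with 2 DSS mice below and 2 above the range of controls (log2 fold change -0.10 ± 0.11 SE, edgeR adjusted p = 0.715). Of the stromelysins, Mmp3 had a log2 fold change of -0.33 ± 0.27 SE at 2.58 ± 0.842 and 2.05 ± 0.562 CPM (SD, n = 6 each), and Mmp11, also known as stromelysin 3, one of -0.10 ± 0.09 SE at 17.9 ± 2.10 and 16.7 ± 1.29 CPM. Neither was called by edgeR. Mmp12, macrophage elastase, stayed near 1 CPM (0.971 ± 0.375 in controls and 0.939 ± 0.228 in DSS mice), although 3 of 13 macrophage markers rose (Adgre1, C1qb and C1qc). Its counts of 8 to 32 per library set a wide error (log2 fold change -0.018 ± 0.27 SE), and its sign was not stable between alternatives.

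Apart from Mmp25, 5 membrane-type MMP genes were tested and 0 of them were called. Mmp24, which encodes MT5-MMP, known for its expression in neurons, had the largest negative value of these. Its lowest, median and highest levels were 1.85, 3.94 and 5.28 CPM in controls and 1.43, 2.00 and 3.01 CPM in DSS mice. Only 2 DSS mice lay below the lowest control, Control replicate 1, but the other 5 controls were above every DSS mouse. The log2 fold change was -0.82 ± 0.26 SE (edgeR adjusted p = 0.0832), and it was -0.98 (adjusted p = 0.0216) without Control replicate 1. With the DESeq2 Wald test it was -0.81 and passed (adjusted p = 0.0333). Of 12 neuron and glia genes 2 fell, the synapsin genes Syn1 and Syn2, and 0 rose. Their summed level lay between 250 and 349 CPM in controls and between 181 and 323 CPM in DSS mice, and their part in the Mmp24 values was not tested. Mmp14 lay between 155 and 198 CPM in controls (median 164) and between 130 and 182 CPM in DSS mice (median 144), with 4 of 6 DSS mice below the lowest control (log2 fold change -0.21 ± 0.10 SE, adjusted p = 0.257). Mmp15, Mmp16 and Mmp17 had values between -0.17 and 0.043. Among the remaining MMP genes, Mmp19 had the highest value, 0.34 ± 0.11 SE (adjusted p = 0.111), at 9.64 ± 1.49 and 12.2 ± 1.61 CPM, with 3 DSS mice above the highest control, and without Control replicate 6 its adjusted p was 0.0499. Mmp23 (-0.052 ± 0.16 SE) and Mmp28 (0.017 ± 0.09 SE) lay near 0.

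The hyalectanases, the ADAMTS proteases that cut the large aggregating proteoglycans, had values of both signs, with 1 of 7 called lower and 0 called higher. Adamts4, aggrecanase 1, fell by 0.45 ± 0.12 SE in log2 terms (edgeR adjusted p = 0.0427). Its lowest, median and highest levels were 12.997, 16.9 and 18.5 CPM in controls and 9.83, 11.8 and 14.7 CPM in DSS mice. In 5 of 6 DSS mice the level was below the lowest control, Control replicate 2, and DSS replicate 4 overlapped the controls. Means were 16.04 ± 2.30 and 11.8 ± 1.84 CPM (SD, n = 6 each). The call held when replicate 2 or 4 of either group was left out, and was lost without any other single mouse, at adjusted p between 0.0538 and 0.105. The gene lies at chr1:171250421-171260637 on the plus strand.

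Adamts1, which also cuts versican and is known for its induction in inflammation, had a value of the other sign. Its levels were 52.4, 64.6 and 72.7 CPM (lowest, median, highest) in controls and 64.4, 84.2 and 104 CPM in DSS mice. In 4 DSS mice the level was above the highest control, and DSS replicates 2 and 3 overlapped the controls. Means were 63.1 ± 8.86 and 83.2 ± 16.2 CPM (SD, n = 6 each), the log2 fold change was 0.40 ± 0.13 SE, and it was not called (edgeR adjusted p = 0.0906). It passed with the DESeq2 Wald test (0.41, adjusted p = 0.0337) and in edgeR without DSS replicate 2 (0.47, adjusted p = 0.0355), without DSS replicate 3 (0.47, adjusted p = 0.0486) and without both Control replicate 2 and DSS replicate 2 (0.50, adjusted p = 0.0482). Adamts5, aggrecanase 2, which lies beside Adamts1 on chromosome 16 within 108 kb, had 36.1 ± 3.31 and 31.4 ± 3.88 CPM, with 3 DSS mice below the lowest control (log2 fold change -0.20 ± 0.09 SE, adjusted p = 0.233). These neighbours thus had values of opposite sign, and their difference was not tested. Adamts8, Adamts9, Adamts15 and Adamts20 lay between -0.046 and 0.10.

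**Figure D4:**
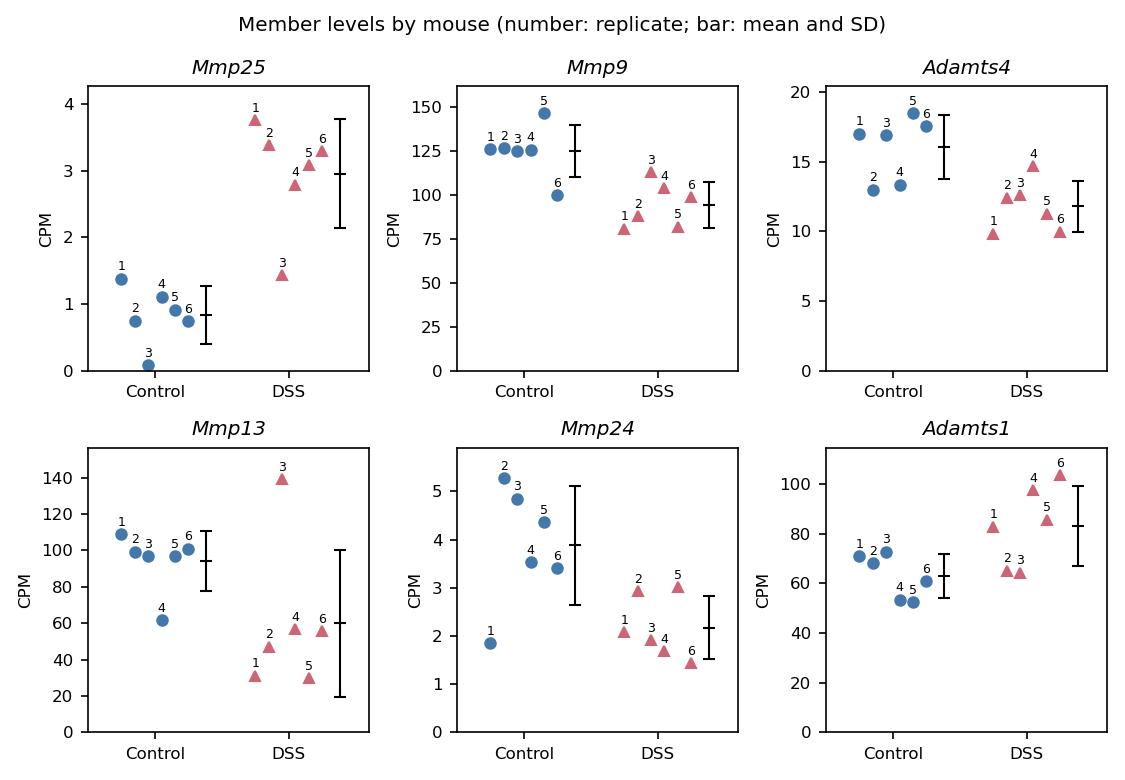
CPM per mouse of Mmp25, Mmp9, Adamts4, Mmp13, Mmp24 and Adamts1 (numbers are replicates; black bars, mean and SD of 6 mice; each panel has its own axis from 0). Mmp25 separates the groups, Mmp9 and Adamts4 overlap in the mice named in the text, and DSS replicate 3 at 139 CPM stands above all other mice in Mmp13.

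The procollagen N-proteinases, which remove the N-propeptide so that fibrils can form, showed no called difference. Adamts2 had 352 ± 30.6 CPM in controls and 332 ± 35.3 CPM in DSS mice (log2 fold change -0.087 ± 0.09 SE), Adamts3 had 17.4 ± 1.84 and 18.9 ± 3.31 CPM (0.12 ± 0.11 SE), and Adamts14 had a value of 0.064. Adamts7 and Adamts12, which cut cartilage oligomeric matrix protein, had values of -0.062 ± 0.12 and -0.11 ± 0.13 SE. Of the other ADAMTS genes, Adamts18 had the most negative value of all members, -1.05 ± 0.36 SE (edgeR adjusted p = 0.116). Its levels were 0.690, 1.36 and 2.07 CPM in controls and 0.294, 0.639 and 1.02 CPM in DSS mice (lowest, median, highest), from 4 to 58 counts per library, and 3 DSS mice lay below the lowest control. Adamts6 had a value of -0.31 ± 0.16 SE (adjusted p = 0.325), Adamts17 one of -0.20 and Adamts10 one of 0.049. The 5 ADAMTS-like genes lay between -0.25 (Adamtsl2, adjusted p = 0.327) and 0.14 (Adamtsl1, adjusted p = 0.373), with 0 called.

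All 4 inhibitors had values below 0 and 0 were called. Timp1 had levels of 28.7, 34.6 and 43.1 CPM (lowest, median, highest) in controls and 20.2, 29.6 and 40.9 CPM in DSS mice, with 3 DSS mice below the lowest control (log2 fold change -0.23 ± 0.18 SE, edgeR adjusted p = 0.551). Timp1 is widely known as an inflammation-induced gene, and no rise was called here. Timp2 had 461 ± 26.9 and 440 ± 42.2 CPM (-0.068 ± 0.08 SE, adjusted p = 0.738). Timp3 had 374 ± 30.5 and 370 ± 26.2 CPM (-0.016 ± 0.08 SE, adjusted p = 0.952), and its sign was not stable between alternatives. Timp4 had 5.49 ± 0.876 and 4.92 ± 0.652 CPM (-0.15 ± 0.13 SE, adjusted p = 0.600). Timp1, Timp3 and Timp4 lie inside the synapsin genes Syn1, Syn3 and Syn2 on the opposite strand. Syn1 (log2 fold change -0.82, adjusted p = 0.0239) and Syn2 (-0.87, adjusted p = 0.0132) fell, Syn3 had -0.12 (adjusted p = 0.938), and the part of shared reads was not tested.

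Other genes of pericellular proteolysis were taken as 3 lists: activators and inhibitors, ADAM genes, and matrix substrates. Of 64 genes 61 were tested, of which 3 rose and 1 fell, and their median log2 fold change was -0.0064, beside -0.022 over all tested genes. The share of 4 in 61 is again near the 4.94% of all genes.

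Among 23 tested activators and inhibitors, 1 rose and 1 fell, both of the plasminogen activation system, whose product plasmin can activate proMMPs. Plaur, the urokinase receptor gene, lay between 1.59 and 3.05 CPM in controls and between 3.63 and 7.98 CPM in DSS mice, without overlap, and rose 2.39-fold (log2 fold change 1.26 ± 0.21 SE, edgeR adjusted p = 0.00297). Plat, the tissue plasminogen activator gene, lay between 80.4 and 96.8 CPM in controls and between 52.0 and 72.7 CPM in DSS mice, without overlap, and fell by 0.53 ± 0.08 SE in log2 terms (adjusted p = 0.00227). Both calls held in every alternative tried. Serpine2, which encodes protease nexin 1, an inhibitor of these activators, had a value of -0.35 ± 0.11 SE (adjusted p = 0.0983) and the testican gene Spock2 one of -0.18 ± 0.08 SE (adjusted p = 0.251). Serpine2 passed with limma-voom (-0.41, adjusted p = 0.0371).

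Of 12 tested genes of the ADAM list, mostly membrane-anchored relatives of the ADAMTS family and not all active proteases, 1 rose and 0 fell. Adam8, a leukocyte sheddase gene, lay between 3.16 and 5.67 CPM in controls and between 7.93 and 11.3 CPM in DSS mice, without overlap, a 2.22-fold rise (log2 fold change 1.15 ± 0.16 SE, edgeR adjusted p = 0.000904) that held in every alternative tried. Adam33, Adam12 and Adam22 had values of 0.41, 0.36 and 0.19 and were not called (adjusted p = 0.140, 0.144 and 0.152). Adam12 passed without DSS replicate 2 (0.44, edgeR adjusted p = 0.0488) and without both Control replicate 2 and DSS replicate 2 (0.49, adjusted p = 0.0447). Adam8 and Plaur are both expressed by myeloid cells, and the neutrophil sums given beside Mmp25 apply to the same mice. Their part in these rises was not tested.

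Of 26 matrix substrates 1 rose and 0 fell. Nid2, the basement membrane gene nidogen 2, had 48.5 ± 4.84 and 60.1 ± 5.56 CPM (SD, n = 6 each; log2 fold change 0.31 ± 0.08 SE, edgeR adjusted p = 0.0401). Its groups overlapped, and the call was lost without Control replicate 2, 3, 5 or 6 or DSS replicate 3, 4, 5 or 6, at adjusted p between 0.0565 and 0.1002. Versican (Vcan), a substrate of the hyalectanases, had a value of 0.52 ± 0.19 SE (adjusted p = 0.145), with 15.8 to 21.8 CPM in controls and 18.0 to 41.0 CPM in DSS mice. Vwf, which encodes the Adamts13 substrate von Willebrand factor, had 0.47 ± 0.18 SE (adjusted p = 0.174). Decorin (Dcn), a collagen-binding proteoglycan, had -0.27 ± 0.09 SE (adjusted p = 0.0989), at 818 ± 81.2 and 677 ± 43.3 CPM, and passed with the DESeq2 Wald test (-0.26, adjusted p = 0.0113) and limma-voom (-0.29, adjusted p = 0.0293).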

How the data were processed

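Total RNA from 12 libraries, 1 per mouse, was sequenced by the authors with a stranded total RNA kit, per the labels' protocols. The submitters' processing notes name CASAVA, FastQC, Trim Galore, HISAT2, featureCounts and mm10; the sources used here do not give versions, annotation or strand setting, so reads shared with overlapping or closely similar genes are uncertain. The deposited table used for all results holds whole-number counts per gene symbol, not normalized. A second deposited table is a normalized signal, each column being the counts divided by 1 factor (equal to the median-of-ratios size factors); it was checked and not tested. Columns were assigned by the labels that head them, with 0 left over.

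Tests ran on the whole table with edgeR 4.0.16 in R 4.3.3: filterByExpr (minimum count 10, minimum total 15), TMM factors, a two-sided quasi-likelihood F-test of treatment with no other term, Benjamini-Hochberg adjusted p under 0.05 over all 18593 genes. The SE of a log2 fold change is its size divided by the root of F. The p-values set the difference between groups against the spread between mice, which the fit moderates across genes. Depth of 9312788 to 41869997 counts sets the counting error.

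Members and lists were chosen with earlier results of these data known. Named were all TIMPs, Mmp2, Mmp3, Mmp9, Mmp13, Mmp14, Adamts1, Adamts4, Adamts5, every called member, the 2 smallest p per role, the 8 highest levels per length, and up to 4 genes per pathway list. Other members and the markers and overlapping genes named beside a result were added as context after their values were seen. Marker lists were summed per mouse without a test: fibroblast, osteoclast, osteoblast and osteocyte, chondrocyte (1 of 8 tested genes fell, 0 rose), neutrophil, macrophage, endothelial and mural (0 of 12 changed), skeletal muscle (0 of 10 changed), choroid plexus (0 of 10 changed), neuron and glia, and colon epithelium (0 of 4 changed). The steps were tested on simulated counts. Alternatives were the Wald test of DESeq2 1.42.0, its size factors in edgeR, limma-voom 3.58.1 with quality weights, 2 other filters, a replicate block, an adjusted p under 0.1, each mouse left out, Control replicate 2 and DSS replicate 2 left out together, and the longest transcript as length.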

Additional observations from a re-analysis of the deposited data

Results flagged for a closer look

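Of 52 groups of 6 mice examined (26 named members in each treatment group), 4 held a mouse whose gap to the nearest other, relative to the range of the group, exceeded Dixon's 95% critical value. Chance gives about 1 in 20 such groups, or 2.6 of 52. Mmp13 held 2 of the 4: DSS replicate 3 was highest at 139 CPM, with the next DSS mouse at 56.9 CPM, and Control replicate 4 was lowest at 61.9 CPM, with the next control at 96.8 CPM. Adamts2 in DSS replicate 2 was lowest at 263 CPM, with the next DSS mouse at 326 CPM; this is the mouse with the high skeletal muscle sum. Mmp2 in Control replicate 3, the shallowest library, was lowest at 385 CPM, with the next control at 445 CPM.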

How the results depend on the processing

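Mmp25, Plaur, Plat and Adam8 kept their direction and call in all alternatives. Members called higher numbered 1, and 2 with the DESeq2 Wald test, with Control replicate 2 and DSS replicate 2 left out together, and at an adjusted p under 0.1 (1 to 2 with single mice left out). Members called lower numbered 2, against 1 with those mice left out together, 0 without a filter, 0 to 2 with single mice left out, and 3, with Mmp24 added, by the DESeq2 Wald test and at an adjusted p under 0.1. Pathway genes called higher numbered 3, and 2 to 4 with single mice left out (4 without DSS replicate 2). Pathway genes called lower numbered 1, against 2 with the DESeq2 Wald test, 2 with those mice left out together, 4 with limma-voom, 3 at an adjusted p under 0.1 and 1 to 2 with single mice left out. Over all genes, 684 were called higher, against 1059 with the DESeq2 Wald test and 443 to 989 with single mice left out (443 without DSS replicate 6). In the other direction 235 were called, against 499 with the DESeq2 Wald test, 479 with limma-voom, 156 without a filter, 634 at an adjusted p under 0.1 and 95 to 390 with single mice left out. Past 1.5 times were the counts without Control replicate 2 (151), 3 (112), 4 (147), 5 (115) or 6 (150) and without DSS replicate 1 (141), 2 (390), 4 (97) or 6 (95). Same-numbered mice did not deviate together (r between -0.19 and 0.15) and 0 of 6 controls correlated best with their own number, so replicate numbers were not taken as pairs. With the replicate block 0 members were called lower, 2 pathway genes lower (Serpine2 added, adjusted p = 0.0284), and 547 genes higher and 161 lower over all. Signs turned for members near 0: Adamts7 (0.0049), Mmp23 (0.072) and Timp3 (0.0099) with Control replicate 2 and DSS replicate 2 left out, Mmp12 with the DESeq2 Wald test (0.0056) and Timp3 with limma-voom (0.0024). With single mice left out these ran from -0.14 to 0.016 for Adamts7, -0.14 to 0.15 for Mmp12, -0.13 to 0.059 for Mmp23 and -0.042 to 0.018 for Timp3. Of 720 log2 fold changes of the 38 named genes recomputed under alternatives, 655 kept both sign and side of the threshold, 33 lost a call, 14 gained one and 18 turned in sign. The causes were not tested. Depth limits the 10 untested members and Mmp12, Adamts18, Adamts20 and Mmp25, with at most 99 counts per library.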
